A study of Rattus norvegicus with 2 samples.

Results

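The probes described here are for non-coding RNAs of the rat that the array lists under names taken to be those of mouse transcripts. They were taken as all non-control probes, present in both scanner files, whose listed name begins with MR followed by letters other than AK. This rule uses names only and gave 819 of the 24684 non-control probes, or 819 different names with 1 probe each, and every probe was printed as 3 spots. Total RNA came from neural stem cells grown from the hippocampus of Sprague-Dawley rats at postnatal day 3, cultured without serum in the presence of basic fibroblast growth factor and used at passage 3. Cells of the sevoflurane group were kept in 2.4% sevoflurane, an inhaled general anaesthetic, for 6 h, and cells of the control group in 0% sevoflurane for 6 h, and per the treatment protocol both then spent 24 h in an ordinary incubator with 5% CO2. Other labels name only 6 h, so the time of harvest is not settled. There was 1 array of each group. It is not settled by the sources whether an array holds RNA of 1 culture or of a pool, and differences below carry neither a replicate check nor a p-value.

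Long non-coding RNAs are transcripts without a long open reading frame. Some act in the nucleus on chromatin and splicing, some guide or hold proteins in the cytoplasm, and some affect a neighbouring gene through the act of their own transcription. Their sequences tend to be less conserved between species than those of messenger RNAs. Such transcripts are often restricted to a tissue or a stage of development, the nervous system among them.

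The names fall into 15 families by the letters after MR. MRuc holds 685 probes, MRBC 61, MRNR 46 and MRFT 12, and 11 families of 5 or fewer hold the other 15. The files give no gene, description, location or sequence beside these names. With MR taken off, 0 of the 819 names, and 0 of the 46 of the MRNR family, matched a transcript accession of the rat RefSeq gene table (assembly GRCr8). None matched another name on the array either. Names of mouse transcripts would not be listed in a rat gene table, so that lookup could not identify the members if their names are such. The members are therefore called by their names in the files, and their description as relatives of mouse transcripts was not tested.

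The cells' label was first set against marker genes. Of 12 neural stem and progenitor markers 11 had a probe and all 11 were well above background on both arrays. Their summed processed signal was 37062 under sevoflurane and 54910 under control gas before scaling, of which Vim gave 26446 and 26814. After scaling 3 of the 11 were at least 2-fold higher and 0 lower, with a median difference of 0.12. Nes, a filament gene of neural precursors, had signals of 777 and 616, and Sox2, a stem cell transcription factor gene, 1993 and 6835. Markers of other cells were also present and differed between the arrays. The summed signal of the 8 microglial markers was 837 under sevoflurane and 9979 under control gas. Of these, 6 were measured on both arrays and 4 were at least 2-fold lower, while Cx3cr1 and Itgam were not well above background on either array. That of 7 of 9 neuronal markers with a probe was 17577 and 66011 (3 of 7 lower, 0 higher), and that of 5 of 6 red cell markers 9173 and 1567 (all 5 higher). Of the other lists, 2 of 5 measured astrocyte markers were higher and 1 lower, 2 of 7 oligodendrocyte lineage markers higher and 1 lower, and all 4 mesenchymal and 2 endothelial markers that were measured were higher. The astrocyte sum was nevertheless 548 under sevoflurane and 2750 under control gas. Its higher markers were dim, S100b at 28.7 and 18.6 and Gjb6 at 46.2 and 12.8. With the intensity-dependent correction described below, Gfap, Aqp4 and Slc1a3 stood at -1.42, -1.20 and -1.53, S100b at 0.01 and Gjb6 at 1.26. The oligodendrocyte lineage, mesenchymal and endothelial sums were 1551 and 2572, 1503 and 987, and 109 and 33.6. The 2 arrays were scanned on different days. The part of these cells in the values below was not tested, the day of the scan cannot be told apart from the group, and fewer cells of a type cannot be told from less RNA per cell.

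Many members were dim, and detection differed between the arrays. Of 816 members with a usable spot on each array, 435 (53.3%) were well above background on both, against 65.2% of all probes. A further 190 (23.3%) were well above background only on the sevoflurane array, where 18.2% of all probes were, and 18 (2.21%) only on the control array, against 1.61% of all probes. The remaining 173 (21.2%) were well above background on neither. MRBC041676, MRuc007bah and MRuc008pug had no usable spot on 1 of the arrays. The MRAK probes, the other mouse-named part of the array and the one most like the members, gave 54.1%, 20.5% and 2.46% in the same order. In the families of the members, 73.9% of MRNR, 58.3% of MRBC and 51.2% of MRuc probes were measured on both arrays.

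A difference below is the log2 level under sevoflurane minus that under control gas, after each array's 75th percentile over usable probes was subtracted. That percentile stood at a processed signal of 359 for sevoflurane and 692 for the control, so a member with a difference of 0 has a higher raw signal on the control array. Over the 435 members measured on both arrays, 182 (41.8%) were at least 2-fold higher and 59 (13.6%) at least 2-fold lower, against 33.1% and 11.9% of all measured probes. Their median difference was 0.69, that of all measured probes 0.37, and the middle of the members' values ran from -0.35 to 1.73 between the quartiles. The extremes were 8.48 and -3.99. The direction of the whole set rests on the scaling. After an intensity-dependent correction 77 members (17.7%) were higher and 85 (19.5%) lower, against 17.1% and 17.2% of all probes, and the median was -0.030. With quantile normalization the counts were 72 (16.6%) and 113 (26.0%), against 15.6% and 21.6%, and in the authors' deposited table of values 72 (16.6%) and 108 (24.8%), against 15.6% and 21.2%. Scaling by the median gave 81 (18.6%) and 152 (34.9%), against 12.6% and 40.8%, and the normexp background correction 147 (33.8%) and 45 (10.3%), against 27.5% and 8.76%. Higher members were thus 75.5% of the calls as scaled here, 47.5% after the intensity-dependent correction and 34.8% after median scaling.

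Spots of a probe repeated closely, with a median SD under sevoflurane of 0.09 log2 units over 407 measured members with 3 usable spots, and under control gas of 0.07 over 409. The standard error of a difference from spots had a median of 0.07. All 241 members past 2-fold lay more than 2 such errors from 0. Their selection by size and the small errors nearly fix that result in advance, so it is no check on the calls. Of the 241, 37 lay within 2 errors of the 2-fold line, and a further 32 members lay as close from the other side. This spread is technical and leaves out differences between cultures, which 1 array a group cannot show.

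Because the scaling matters so much, members past 2-fold in the same direction in all 7 scalings and value sources were singled out, after their values had been seen. There were 51 higher (11.7%, against 9.11% of all probes) and 39 lower (8.97%, against 7.23% of all probes). The sign of the difference was the same in all 7 for 255 of the 435 measured members (58.6%, against 55.5% of all probes). With the scaling to the 75th percentile, 89 members (20.5%) were at least 4-fold higher and 13 (2.99%) at least 4-fold lower, against 14.1% and 2.85% of all probes. That direction turned with median scaling, to 15 (3.45%) higher and 68 (15.6%) lower by 4-fold, against 3.31% and 13.7%. It also turned with quantile normalization, to 18 (4.14%) and 30 (6.90%), against 4.63% and 7.05%. In the deposited table the counts were 18 (4.14%) and 28 (6.44%), against 4.61% and 6.51%. With the intensity-dependent correction they were 21 (4.83%) and 18 (4.14%), against 5.02% and 4.72%. Under normexp they were 17 (3.91%) and 9 (2.07%), against 3.61% and 1.65%. Only the 75th percentile over measured probes kept the size of the lean, with 96 (22.1%) and 11 (2.53%), against 16.1% and 2.45%. At 8-fold, again scaled to the 75th percentile, the counts were 20 (4.60%) and 4 (0.920%), against 3.74% and 0.872%, and at 16-fold 7 (1.61%) and 0, against 1.31% and 0.081%.

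MRuc008pue, MRNR_027362 and MRBC039874 stood far above the rest of the set. MRuc008pue had a processed signal of 16091 under sevoflurane and 86.8 under control gas, a difference of 8.48 (SE over spots 0.11), which ranked 18 of 16047 measured probes. For MRNR_027362 the signals were 3399 and 18.6 and the difference 8.46 (SE 0.20, rank 19). MRBC039874 gave 4363 and 27.8, a difference of 8.24 (SE 0.05, rank 21). Under the other 6 scalings and value sources these 3 stayed between 6.35 and 8.66. They belong to different name families, and nothing in the files ties them to each other.

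Next came members with a clear signal on both arrays. MRuc007nww measured 19835 under sevoflurane and 1131 under control gas, a difference of 5.08 (3.98 at its lowest over the scalings). The signals of MRuc007guc were 12500 and 1873, those of MRuc009rbp 1764 and 407, and those of MRuc009jxl 1333 and 135. Their differences were 3.68, 3.06 and 4.25, and none fell below 1.96 under any scaling. All 4 were brighter on the sevoflurane array even before scaling. MRuc008qhz (1014 and 135) differed by 3.85, MRuc007eth (312 and 50.3) by 3.58 and MRuc009glr (1154 and 286) by 2.96. The last had the widest spread between spots of these 3, with an SD of 0.57 on the control array. Among members below the median level of the measured ones, MRuc007okw, named after its values were seen, differed by 5.30 (signals 303 and 14.8), but its control spots had an SD of 1.03, so that its SE was 0.60.

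The 10 lowest members above the median level had control signals of 414 or more and sevoflurane signals of 405 or less. MRBC030402 had signals of 104 under sevoflurane and 3189 under control gas, a difference of -3.99 (SE 0.02), which ranked 14 from the bottom of 16047 measured probes. MRuc007smc (26.8 and 793) and MRuc007pkh (26.0 and 580) differed by -3.94 and -3.53, ranks 17 and 49 from the bottom. Their sevoflurane signals were low, and under normexp they stood at -2.36 and -2.15. MRuc008jhl gave 135 and 2593, a difference of -3.32, and MRuc007ctg 405 and 5807, a difference of -2.90. Further among these 10, MRuc008orj, MRuc007wbg, MRuc009pqy, MRuc007szp and MRuc007pas differed by -2.87, -2.77, -2.67, -2.31 and -2.22. Each of these 10 kept a difference of at least 2-fold in all 7 scalings, the nearest to the line being MRuc009pqy at -1.56 under normexp. Scaled to the 75th percentile, no member measured on both arrays was lower by 16-fold. After median scaling some were, among them MRBC030402, MRuc007smc and MRuc007pkh at -5.08, -5.04 and -4.63. The same members stood at -4.25, -4.90 and -4.55 with quantile normalization and at -4.25, -4.90 and -4.56 in the deposited table. With the intensity-dependent correction they stood at -3.86, -4.30 and -3.99.

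Differences leaned with the level of a probe, so members were set beside all probes in 3 bands of equal size by the geometric mean of both signals. In the dim band (below 83.6) 132 of 208 members (63.5%) were at least 2-fold higher and 5 (2.40%) at least 2-fold lower, against 61.2% and 4.82% of all probes there. In the middle band 43 of 153 (28.1%) were higher and 29 (19.0%) lower, against 25.3% and 16.3% of all probes. Shares in both bands were near the background. The dim band held 47.8% of the measured members, against 33.3% of all measured probes, and 132 of the 182 higher members lay in it.

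The bright band, above a geometric mean of 642, looked different. Of 74 members there 7 (9.46%) were at least 2-fold higher and 25 (33.8%) at least 2-fold lower, against 12.7% and 14.7% of all probes. The median difference was -0.49 for members and -0.06 for all bright probes. MRAK probes had the same lean, with 121 of 325 (37.2%) lower and a median of -0.75, whereas 13.4% of 4206 bright RefSeq messenger RNA probes were lower and their median was -0.07. With the intensity-dependent correction 28.4% of the bright members were lower (12.6% of all probes), after quantile normalization 31.1% (14.4%) and by the authors' deposited values also 31.1% (14.3%). In all 7 scalings 21 of the 74 (28.4%) were at least 2-fold lower, against 11.4% of all bright probes and 32.9% of MRAK probes. With 1 array a group these shares describe 2 arrays and were not tested.

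Among bright members that were lower in every scaling, besides MRuc007ctg, MRuc007szp and MRuc007pas, MRuc008ysa had signals of 623 under sevoflurane and 5019 under control gas and differed by -2.06. MRuc007uxi (445 and 3410) stood at -1.99, MRuc008tty (590 and 4238) at -1.90 and MRuc008zix (1697 and 9356) at -1.52. These 4 were named after their values were seen. All were dimmer on the sevoflurane array by far more than the spread of their spots. The 7 bright members that were higher were MRuc008pue, MRuc007nww, MRuc007guc, MRuc009rbp, MRuc008ihi, MRuc007zws and MRBC052873. MRuc008ihi had signals of 2624 and 988 and a difference of 2.36. MRuc007zws, at 1.66, and MRBC052873, at 1.38, came down to 0.56 and 0.28 after median scaling.

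Most of the 8 members with the strongest signals differed by less than 2-fold as scaled here. Signals of different probes depend on the probes themselves and are not compared as amounts of RNA. MRBC052873 had signals of 49722 and 36836, sevoflurane first (difference 1.38). MRNR_003557, at 34330 and 38730 (0.77), and MRuc007hrz, at 20987 and 34921 (0.21), had the opposite sign in 4 of the 7 scalings. MRuc007gex gave 11568 and 24000 (-0.11) and MRuc007tcw 6135 and 7317 (0.69), each with the opposite sign in 1 scaling. As scaled here, only MRFT35910 and MRuc008ygx of the 8 strongest were lower by at least 2-fold. They stood at -1.18 (signals 3395 and 14780) and -1.17 (2830 and 12239), and both stayed past 2-fold in all 7 scalings. Of all probes of the bright band 12.7% were at least 2-fold higher and 14.7% lower. After median scaling MRuc007gex and MRNR_003376 were also past 2-fold, at -1.20 and -1.14. MRNR_003376, at 3622 and 7178, differed by -0.04. It was also among the 5 members above the median level with differences nearest to 0, with MRuc007hyr (0.00), MRuc008oji (-0.02), MRuc007jsx (0.03) and MRuc007lgd (0.03). Each of these 5 changed sign in at least 1 scaling.

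The MRuc family made up most of the set. Of its 350 measured members 144 (41.1%) lay above and 45 (12.9%) below the 2-fold lines, against 33.1% and 11.9% of all probes. The median of 0.68 moved to -0.02 with the intensity-dependent correction, when 56 (16%) were higher and 65 (18.6%) lower, against 17.1% and 17.2%. In all 7 scalings 39 (11.1%) were higher and 30 (8.57%) lower, against 9.11% and 7.23%. By the digits of the name, 44 of 118 measured members numbered 007 were higher (37.3%) and 22 lower (18.6%), 58 (42.3%) and 15 (10.9%) of 137 numbered 008, and 42 (44.2%) and 8 (8.42%) of 95 numbered 009, beside the same 33.1% and 11.9% of all probes. The medians were 0.59, 0.72 and 0.80, and after the correction -0.10, -0.08 and 0.06.

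Of 35 measured MRBC members 18 (51.4%) were higher and 5 (14.3%) lower, against 33.1% and 11.9% of all probes. With the intensity-dependent correction the counts were 10 (28.6%) and 6 (17.1%), against 17.1% and 17.2%, and the median was 1.13 (0.43 with it). In all 7 scalings 6 (17.1%) were higher and 3 (8.57%) lower, against 9.11% and 7.23%. Besides MRBC039874, the higher ones were MRBC038325 with signals of 183 under sevoflurane and 41.5 under control gas (3.09), MRBC012634 with 40.2 and 10.5 (2.88), MRBC020352 with 41.6 and 11.2 (2.84), MRBC003765 with 91.0 and 37.8 (2.21) and MRBC038268 with 147 and 66.1 (2.10). The control signals of these 5 were 66.1 or less, and 4 of them came down to between 1.01 and 1.13 at their lowest over the scalings. The lower ones had strong control signals. Besides MRBC030402 they were MRBC049675, at 92.6 and 621 (-1.80), and MRBC019134, at 1400 and 7415 (-1.46).

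MRNR names have the form of RefSeq accessions for non-coding RNA. Of 34 measured members 13 (38.2%) were higher and 5 (14.7%) lower, near the 33.1% and 11.9% of all probes. With that correction 7 (20.6%) and 9 (26.5%) were so, against 17.1% and 17.2%, and the median was 0.34 (-0.24 with it). Besides MRNR_027362, MRNR_024083 (134 and 18.2, a difference of 3.83) and MRNR_001462 (84.5 and 35.3, 2.20) were higher in all 7 scalings. MRNR_026574 (201 and 1367, -1.82), MRNR_003641 (304 and 1771, -1.60) and MRNR_024327 (985 and 4557, -1.26) were lower in all 7. In all 7 scalings 3 of the 34 (8.82%) were thus higher and 3 (8.82%) lower, near the 9.11% and 7.23% of all probes. The family's largest contrast toward the control array lay outside these counts, since MRNR_024325 had a signal of 274 on the control array and 4.38, not well above background, on the sevoflurane array. Scaled to the 75th percentile it was at least 20.6-fold brighter on the control array, while under normexp its difference was -1.45.

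The MRFT family had a negative median, as no other of the 4 larger families had under this scaling, while with the intensity-dependent correction those of MRuc and MRNR were negative too. Of 9 measured members 2 (22.2%) were higher and 3 (33.3%) lower, against 33.1% and 11.9% of all probes, and the median was -0.30 (-0.84 with the correction). Its 3 lower members were its 3 members of the bright band, where 14.7% of all probes were lower, and all were lower in all 7 scalings. Of all probes 7.23% were lower in all 7, and of all bright probes 11.4%. MRFT31784 had signals of 686 and 4161 (-1.65) and MRFT310581 of 593 and 2740 (-1.26), beside MRFT35910 above. With 9 members these shares and the median rest on few probes.

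In the families of 5 or fewer, 7 of 15 members were measured, 5 of them higher (71.4%) and 1 lower (14.3%). The shares were 33.1% and 11.9% of all probes, and 61.2% and 4.82% of all probes of the dim band. MRAF173359, MRLIT1112 and MRAB030205 lay above the dim band, so its shares are no like background for them. MRY07561 (55.1 and 15.3) differed by 2.80, MRLIT3398 (75.2 and 27.8) by 2.38 and MRAF173359 (297 and 119) by 2.27, and these 3 were higher in all 7 scalings. They were 42.9% of the measured members of these families, against 9.11% of all probes, and 0 were lower in all 7 scalings. MRU48241 was at 1.72, but at 0.81 after the intensity-dependent correction. MRAY279360 (24.4 and 11.8) was at 1.996 here and at -0.083 after quantile normalization and in the authors' deposited table. MRLIT1112 (86.5 and 408) was at -1.29 and, under normexp, at -0.88, and MRAB030205 (595 and 1113) at 0.04. Of the other 8 members 6, or 40% of the 15, were well above background on the sevoflurane array only, against 18.2% of all probes. With 15 members this share rests on few probes. One of these 6 was MRDQ860415, at a signal of 41.9 against 7.01. As scaled here it was at least 11.2-fold brighter, while under normexp its difference was 1.56. MRAJ250192 and MRLIT3360 were well above background on neither array.

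For members seen on 1 array only, the brighter level was set against the higher of the dim level and a floor, all scaled to the 75th percentile. The floor was the lowest level of any probe well above background on the dim array. Before scaling it stood at a signal of 6.88 for the sevoflurane and 7.22 for the control array. Each bound holds for this scaling only. All 190 members seen on the sevoflurane array only were at least 2-fold brighter there by this bound, as were 4489 of 4491 such probes of the whole array (100% when rounded). The scaling to the 75th percentile itself raises that array against the control array. Their sevoflurane signals ran from 9.59 over a median of 18.1 to 132, and their control signals from 1.74 over 3.08 to 9.57. Most were thus weak. The strongest were MRuc007phl, at 132 and 7.09 and at least 35.2-fold brighter, and MRuc007dak, at 125 and 4.52 and at least 33.2-fold. MRuc008wdm, MRuc008fdh and MRuc009moc followed at 23.9-fold, 20.9-fold and 20.4-fold or more. Under normexp these 5 differed by less than their bounds, though all by more than 1.95 log2 units. MRuc007phl stood there at 2.39 and MRuc007dak at 2.42.

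In the other direction the control array had few members to itself. Of 18 seen there only, 3 were at least 2-fold brighter by the bound (16.7%, against 27.8% of such probes of the whole array), and for 9 no fold could be given. The scaling lowers the control array against the sevoflurane array and so makes these bounds smaller. Counts by the bound can therefore not be compared between the directions. After MRNR_024325 came MRuc009osf, at 6.62 under sevoflurane and 56.4 under control gas and at least 4.25-fold brighter on the control array, and MRuc008xkb, at 7.05 and 33.6 and at least 2.47-fold. MRuc008sub and MRuc008joq had bounds of 1.68-fold and 1.62-fold. Under normexp the last 4 were not lower on the sevoflurane array, at 0.01, 0.42, 0.56 and 0.46, whereas MRNR_024325 stood at -1.45.

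Names that follow each other without a gap gave no uniform picture. The MRuc names held 21 such neighbouring couples, of which 6 had both members measured. In 2 of these 6 both differences had the same sign. The widest gap was that of MRuc008pud, at -1.26 (signals 395 and 1829), beside MRuc008pue at 8.48. MRuc008rkv and MRuc008rkw were both higher, at 3.05 and 2.04. What the order of the names stands for is not given in the files, and the couples were looked at after the values were known.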

How the data were processed

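Each sample is 1 array of 1 colour (Cy3). The deposited scanner files give linear spot intensity, corrected for background within each array by Agilent Feature Extraction, version 11.0.1.1 as the submitters' processing notes and the headers state. Per the file headers the array design refers to genome build rn4, so no coordinates are given. The authors' deposited value table was read as log2 intensities: its columns correlated at 0.991 (sevoflurane) and 0.993 (control) with log2 scanner signals over 24431 probes, had medians of 5.61 and 5.60, and rested on a lowest value for 51 (sevoflurane) and 254 (control) of the 819 members. Its program and centring remain unknown. Per the labels' protocols the RNA was labelled along its length by random priming.

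Control spots and spots marked as non-uniform or population outliers (51 of 2457 member spots on the sevoflurane array, 61 on the control array) were left out, log2 processed signals of a probe's spots averaged, and the 75th percentile over usable probes subtracted. No member spot was saturated. A probe was measured when most usable spots were called well above background on both arrays. With 1 array per group no test is possible, the number of arrays limits the precision, and at least 2-fold (1 log2 unit) is a rule of size. The 7 scalings and value sources are this one, median scaling, quantile normalization, the 75th percentile over measured probes, a lowess correction (span 0.3, statsmodels 0.14.6), normexp (limma 3.58.1, offset 50, on the median spot and background signals, since the scanner files have no mean signal) and the deposited table. The scaling code was tested on simulated data.

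The members and lists were chosen with earlier results of these data known. The rule for named members took the 10 highest and 10 lowest differences above the measured members' median level (a geometric mean signal of 93.6), the 8 strongest, the 5 highest bounds in each direction, up to 10 measured members of families of 5 or fewer, names with more than 1 probe (there were none) and the 5 nearest to 0. Others were named after their values were seen, among them those past 2-fold in all 7 scalings.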

Additional observations from a re-analysis of the deposited data

How the results depend on the processing

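The median difference of the measured members, 0.69, became -0.40 after median scaling, -0.16 with quantile normalization, -0.030 with the intensity-dependent correction, -0.15 in the authors' deposited table and -0.12 when only members above the median level were kept. It was 0.81 with the 75th percentile over measured probes, 0.56 with that over spots (an alternative chosen after seeing the data) and 1.76 with no filter on dim probes. The 182 members higher by at least 2-fold became 81 after median scaling, 72 with quantile normalization, 77 with the intensity-dependent correction, 72 in the deposited table, 46 above the median level and 541 with no filter on dim probes. The 59 lower ones became 152 after median scaling, 113 with quantile normalization and 108 by the deposited values. These counts stayed within 1.5 times under normexp, with outlier spots kept and with the median of spots, as did the counts of members well above background under each rule tried. Of 29 named members past 2-fold, 25 stayed past it in the same direction in all settings, and MRAY279360 alone changed sign, to -0.083 with quantile normalization and with the deposited values. No paired analysis was possible because each group has 1 array, and no array could be left out. Low signals limit these results: 173 members were well above background on neither array and 190 only under sevoflurane, and 254 rested on the lowest value of the deposited control column.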
